A study of Mus musculus with 12 samples.

Results

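The genes described here encode the proteins of the cytosolic ribosome, and they were followed in whole back skin of BALB/c mice. They were taken as the protein-coding genes whose symbol is that of a large-subunit protein (Rpl and a number, or Rplp0, Rplp1 and Rplp2) or of a small-subunit protein (Rps and a number, or Rpsa). This gave 77 genes of 52636 in the count table, 46 for the large subunit and 31 for the small one. The rule itself used no measured value, though the family was chosen with earlier results of these data known. All 77 genes passed the filter on low counts, which kept 17993 genes in all.

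RNA sequencing had been run on 12 skin libraries, 3 in each of 4 groups. The control group received vehicle, the control + RAPA group vehicle and rapamycin (RAPA), the LL37 group the peptide LL37, and the LL37 + RAPA group both agents. The mice were 8 weeks old and were given 40 µl of LL37 at 0.32 mM, or vehicle, into the dermis of the back over 2 days. Rapamycin given systemically went into the peritoneum at 4 mg/kg per day. These doses stand in the methods for the mouse experiments, and the sample labels give neither dose nor route. LL37 is the active peptide of human cathelicidin and serves here as a model of rosacea, and rapamycin inhibits the kinase complex mTORC1. The model is short, it uses injection of a human peptide into mice of 1 strain, and each library was made from a piece of whole skin with all its cell types, so that fewer cells of a type and less RNA per cell cannot be told apart. The labels name no batch, and the study describes the libraries of a group as independent biological samples.

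Each ribosome carries 1 copy of almost every ribosomal protein, and the genes are transcribed at high and similar levels in nearly all cells. Their mRNAs are the classic 5′ terminal oligopyrimidine (TOP) mRNAs, which start with a cytosine followed by an unbroken run of pyrimidines, and mTORC1 controls how well they are translated, in part through the RNA-binding protein LARP1. Rapamycin is therefore known for lowering the translation of these mRNAs, and phosphorylation of ribosomal protein S6 is the usual readout of mTORC1 activity. Only mRNA levels were measured here, so neither translation nor phosphorylation is seen in these values.

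The start of 5 of the genes is shown first, because the TOP motif is the feature that ties this family to mTORC1. Each line gives 10 bases before the annotated transcription start and 20 bases from it, on the strand of the gene, from RefSeq on the GRCm38.p6 build, with the pyrimidine run that begins at the start in capitals. Rps6, Rps18 and Rplp2 return below with their values, and Rpl15 and Rpl35 are shown for their long runs.
Rps6: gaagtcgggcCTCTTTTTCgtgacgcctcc
Rps18: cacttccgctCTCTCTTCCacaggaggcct
Rpl15: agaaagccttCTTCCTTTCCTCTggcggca
Rpl35: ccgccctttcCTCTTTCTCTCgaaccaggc
Rplp2: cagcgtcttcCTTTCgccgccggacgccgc

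These windows lie at chr4:86857348-86857377 on the minus strand for Rps6, chr17:33955646-33955675 on the minus strand for Rps18, chr14:18270967-18270996 on the minus strand for Rpl15, chr2:39005112-39005141 on the minus strand for Rpl35 and chr7:141447641-141447670 on the plus strand for Rplp2. A start sequence was found for 57 of the 77 genes. Of these, 13 (22.8%) had a cytosine at the annotated start and at least 5 pyrimidines in a row from it, against 813 of 27025 genes of all kinds (3.01%). Allowing for starts annotated a few bases away, an unbroken run of 8 pyrimidines lay within 40 bases of the start in 40 of the 57 genes (70.2%), against 26.1% of all genes. These counts describe the letters at annotated starts, searched on the strand of the gene only.

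Libraries held between 15734559 and 23271784 counts. The 77 genes took 4.24, 5.06 and 4.63% of them in the control libraries, 5.04, 4.74 and 5.25% in the control + RAPA libraries, 4.79, 5.63 and 4.99% in the LL37 libraries and 6.37, 5.66 and 6.02% in the LL37 + RAPA libraries. All 3 LL37 + RAPA libraries lay above the other 9, the lowest of them only just above LL37 replicate 2, whereas the other 3 groups overlapped. These are shares of raw counts. With the scaling between libraries used below, the median gene of the family did not separate LL37 + RAPA from control + RAPA or LL37. The group means were 4.64% ± 0.412 in control, 5.01% ± 0.255 in control + RAPA, 5.14% ± 0.441 in LL37 and 6.02% ± 0.355 in LL37 + RAPA (SD, n = 3 each). No test was run on this sum, and the large and the small subunit had the same order of groups.

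**Figure D1:**
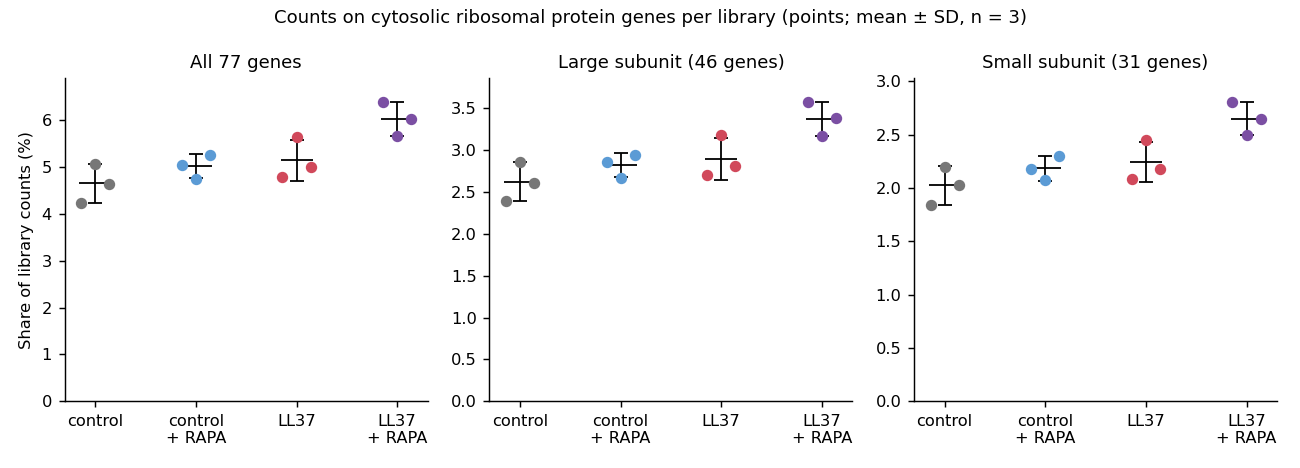
Percent of each library's counts that fell on the 77 ribosomal protein genes (vertical axis) in the 4 groups, with a point for each library and the mean ± SD of each group (n = 3). The LL37 + RAPA libraries, between 5.66 and 6.37%, were above all others in this share of raw counts, taken without scaling between libraries.

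Other parts of the libraries moved at the same time. Of 11 genes on a list of skeletal muscle markers 10 were tested, and all 10 were lower in LL37 than in control. Their summed share of the counts ran from 2.32 to 3.45% in control, from 2.51 to 4.53% in control + RAPA, from 0.00136 to 0.0589% in LL37 and from 0.230 to 0.530% in LL37 + RAPA. All 5 neutrophil markers rose with LL37, with a summed share of 0.000928 to 0.00715% in control, 0.00151 to 0.00306% in control + RAPA, 0.0262 to 0.251% in LL37 and 0.00864 to 0.0370% in LL37 + RAPA. All 5 adipocyte markers fell with LL37, at 0.0442 to 0.0898% in LL37 against 0.123 to 0.215% in control, 0.132 to 0.310% in control + RAPA and 0.237 to 0.261% in LL37 + RAPA. Of 5 keratinocyte markers, 2 were higher with LL37 (2.72 to 3.87% of counts against 1.84 to 2.58% in control, 1.75 to 2.25% in control + RAPA and 2.20 to 2.33% in LL37 + RAPA).

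The adipocyte markers above had their highest mean share in LL37 + RAPA (0.252% against 0.209% in control + RAPA), as the ribosomal protein genes did. The markers that follow had it there too. The 5 macrophage markers ran from 0.0501 to 0.0803% of counts in control, 0.0419 to 0.0606% in control + RAPA, 0.126 to 0.170% in LL37 and 0.138 to 0.242% in LL37 + RAPA, and all 5 rose with LL37 while 2 of 5 were called higher in LL37 + RAPA vs control. The 5 fibroblast markers ran from 0.237 to 0.526%, 0.210 to 0.240%, 0.384 to 0.555% and 0.449 to 0.648% in the same order of groups, and the 3 endothelial markers from 0.0165 to 0.0226%, 0.0157 to 0.0264%, 0.0184 to 0.0270% and 0.0267 to 0.0302%. Of the last 2 lists, 1 fibroblast gene was called higher in LL37 vs control and 0 genes in LL37 + RAPA vs control. Other lists peaked elsewhere. The T cell markers had their highest mean share in LL37 (0.00105% against 0.000662% in LL37 + RAPA). The melanocyte markers had it in control (0.00337% against 0.00266% in LL37 + RAPA). The part of cell composition in the ribosomal protein values was not tested.

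Levels between genes were compared as CPM (counts scaled to library size, with TMM factors between libraries) per kilobase of an annotated transcript, averaged over the 12 libraries. The median of the 77 genes was 839 CPM per kb, and the middle part of the family, from the 25th to the 75th percentile, spanned only 546 to 1095. The highest were Rplp1, an acidic protein of the stalk that recruits translation factors (3071 CPM per kb), Rps15 (2056) and Rps27 (2026). The lowest were Rpl21 (5.54 CPM per kb), Rpl29 (6.03) and Rpl24 (10.1), and 8 genes in all lay under 100. These 8 include genes with many processed copies in the genome, described further down, and Rps15a, picked out after its value was seen, whose chosen transcript of 5130 bases is long for a family with a median of 774.

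Within a group the 77 genes varied little. The median coefficient of variation between the 3 libraries of a group was 7.95% for the ribosomal protein genes. It was 16.0% for all tested genes with counts in every library, which were not matched to the family for level. What variation there was ran through the family as a whole. In control replicate 1 only 2 of the 77 genes lay above the mean of the control group, while in control replicate 2 it was 72, and the median gene lay 0.11 below and 0.13 above that mean on the log2 scale, respectively. In LL37 + RAPA the 3 libraries had 74, 70 and 75 genes above the control mean, with medians of 0.34, 0.17 and 0.22. The genes were therefore not independent of each other, and a count of genes that moved one way is a description of a few libraries. On the same scale the medians were 0.23, 0.06 and 0.19 in control + RAPA and 0.02, 0.21 and -0.0014 in LL37. The LL37 + RAPA libraries thus overlapped both of these groups, unlike in their share of raw counts.

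**Figure D2:**
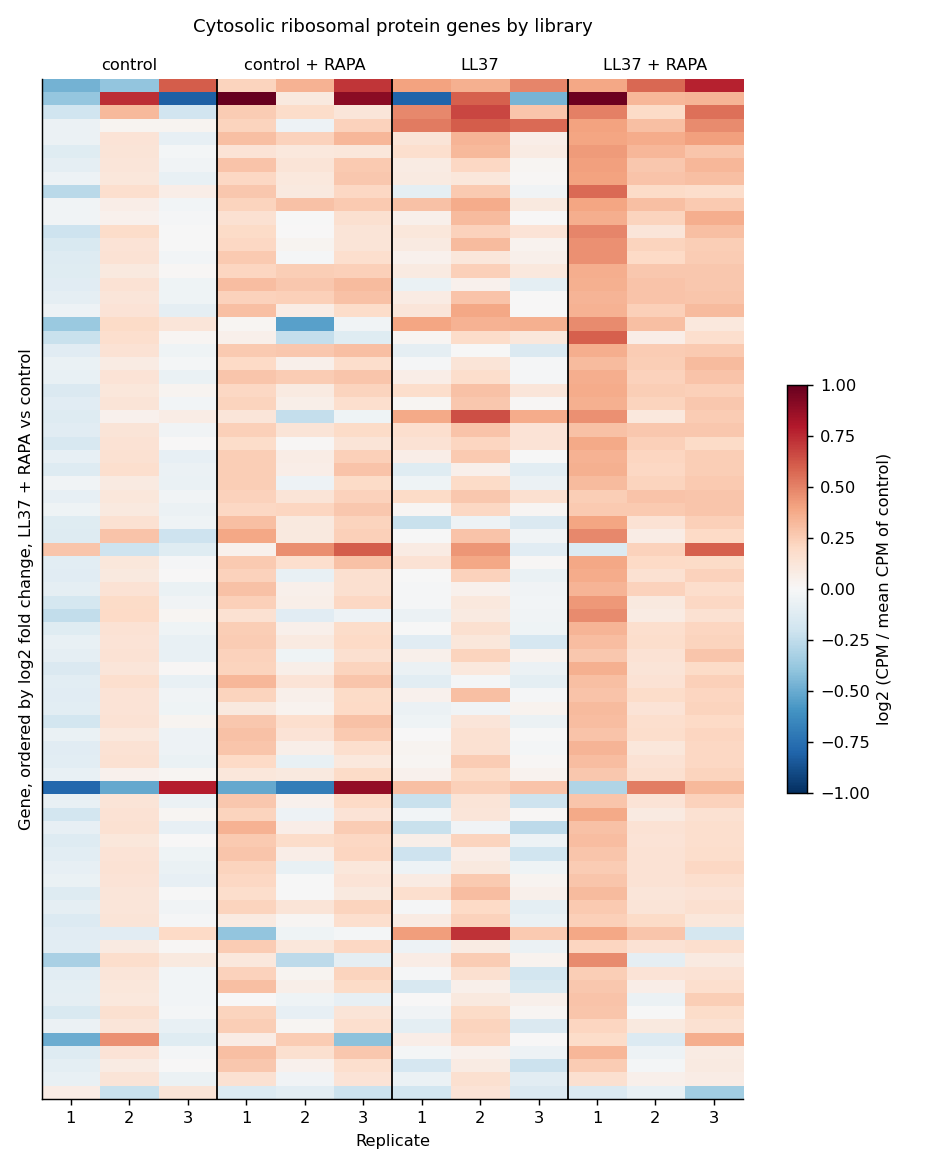
Log2 ratio of each library's CPM to the mean of the control group (colour) for the 77 ribosomal protein genes (rows, ordered by their log2 fold change for LL37 + RAPA vs control) in the 12 libraries (columns, by group). Whole columns share a tint, as in control replicate 1, where 2 of 77 genes lay above the control mean, and in LL37 + RAPA replicate 1, where 74 did.

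The first comparison, LL37 vs control, asks what the peptide did in the absence of rapamycin. Ribosomal protein mRNAs differed little on balance: the median log2 fold change of the 77 genes was 0.08, 58 genes had a value above 0, and the range ran from -0.17 to 0.56. At an adjusted p-value below 0.05, 4 genes rose with LL37, namely Rpl13a, Rpl41, Rps12 and Rps18, and 0 fell. This is 5.19% of the family, against 21.0% of all 17993 tested genes that were higher and 21.6% that were lower (edgeR quasi-likelihood test with Benjamini-Hochberg adjustment over all tested genes, here and below). All 3 LL37 libraries lay above all 3 control libraries for 8 of the 77 genes, or 10.4%, against 23.8% of all tested genes. None of the 77 had a log2 fold change beyond 1 in either direction. The standard deviation of the log2 fold change was 0.14 over the family and 1.31 over all tested genes.

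Rpl13a, a large-subunit protein also known for a role outside the ribosome in silencing inflammatory transcripts, had the smallest p. Its level was low for the family, at 29.1 CPM per kb, one of the 8 genes under 100, and 55.2% of the 100-base stretches of its transcript are shared with other genes, among them Gm45713, annotated over it and at 0 counts, so that its counts are uncertain. Adding its copies gave 31.7 CPM per kb. The gene lies at chr7:45125558-45128761 on the minus strand. Its level was 23.9, 25.3 and 25.4 CPM in control, 29.1, 24.0 and 29.2 in control + RAPA, 35.7, 37.8 and 36.7 in LL37 and 32.9, 30.7 and 34.4 in LL37 + RAPA. The LL37 libraries were the highest of all, and both LL37-injected groups lay above both vehicle groups with no overlap. The log2 fold change for LL37 vs control was 0.56 ± 0.097 (SE, adjusted p = 0.000819), or 47.9% higher, and it passed the threshold with each of the 12 libraries left out in turn.

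Rpl41 encodes the smallest ribosomal protein, a short basic peptide, and lies at chr10:128548114-128549305. It had 845, 953 and 970 CPM in control, 1005, 782 and 896 in control + RAPA, 1200, 1440 and 1196 in LL37 and 1268, 992 and 1102 in LL37 + RAPA. The LL37 libraries were above all vehicle libraries, whereas LL37 + RAPA ran from within the vehicle range to within the LL37 range. The difference from control was 0.47 ± 0.135 on the log2 scale (SE, adjusted p = 0.0150), and without control replicate 1 the adjusted p was 0.0646.

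Rps12 and Rps18, both of the small subunit, rose as well, but their calls rested on more of the libraries. Rps12 had 341, 492 and 344 CPM in control and 546, 622 and 475 in LL37, so that the groups overlapped. Its log2 fold change was 0.48 ± 0.160 (SE, adjusted p = 0.0303), and the adjusted p went up to 0.112 when a library was left out, with the call lost without control replicate 1 or 3 or LL37 replicate 1 or 2. Of the stretches of Rps12, 88.9% are shared with other genes, so that its counts are uncertain too. Its copies held 32.6% of the counts of gene and copies together. With them added the log2 fold change was 0.44 (adjusted p = 0.0284). Rps18, one of the genes with a TOP-like start above and at 89.7 CPM per kb also among the 8 low ones with most of its stretches (57.3%) shared with other genes, had 42.2, 45.3 and 42.4 CPM in control and 53.2, 55.9 and 46.4 in LL37, with no overlap. Its log2 fold change was 0.26 ± 0.088 (SE, adjusted p = 0.0325), and the call was lost without the same 4 libraries. With copies added the log2 fold change of Rps18 was 0.23 (adjusted p = 0.0571). The number of called genes was 1 without control replicate 1, 2 without LL37 replicate 1 or 2, and 7 without LL37 replicate 3. It was 2 when only the groups compared were fitted and 8 when libraries were scaled by their total counts alone. Over all tested genes, 17.1% were called higher without control replicate 1 and 15.3% without LL37 replicate 1. The share was 19.0% without LL37 replicate 2 and 24.7% without LL37 replicate 3. It was 16.0% with only the groups compared and 25.5% with scaling by total counts.

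Of the genes named for their role, those at the centre of mTORC1 and stress biology did not pass the test in this comparison. Rps6, the S6 protein phosphorylated downstream of mTORC1, had 752, 870 and 774 CPM in control and 844, 972 and 802 in LL37, a log2 fold change of 0.13 (adjusted p = 0.342). Rplp0, the base of the stalk and a common reference gene, had 970, 1144 and 984 CPM in control and 1024, 1063 and 1006 in LL37, with a 95% interval of the log2 fold change from -0.21 to 0.21. Rpl5 and Rpl11, which together with ribosomal RNA bind and inhibit the p53 regulator MDM2, had log2 fold changes of -0.08 and 0.13, and neither passed the test. Rpl15, the gene with the longest of the pyrimidine runs shown above, had 385, 440 and 398 CPM in control, 466, 493 and 456 in LL37, which did not overlap, with a log2 fold change of 0.21 (adjusted p = 0.0679).

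**Figure D3:**
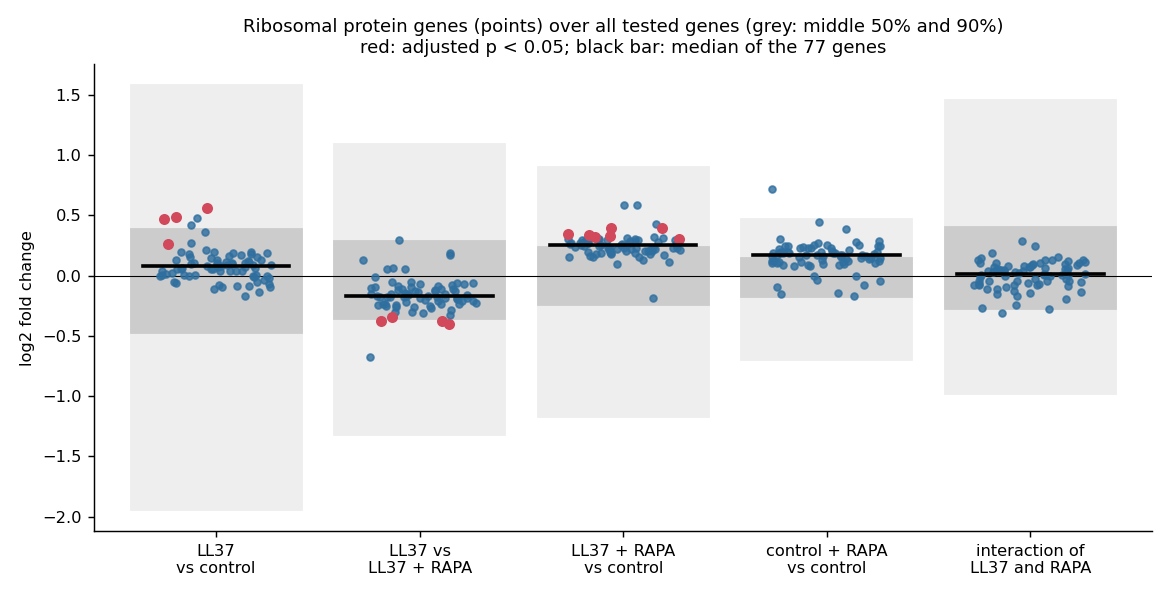
Log2 fold change of each of the 77 ribosomal protein genes (points) in each comparison, with genes at an adjusted p below 0.05 in red, the family median as a black bar, and the middle 50 and 90% of all tested genes as dark and light grey boxes. The median was 0.08 for LL37 vs control, -0.17 for LL37 vs LL37 + RAPA and 0.25 for LL37 + RAPA vs control, and no gene lay beyond a log2 fold change of 1.

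The second comparison, LL37 vs LL37 + RAPA, asks how the skin of LL37-injected mice differed without and with rapamycin. Values here are LL37 relative to LL37 + RAPA, and the LL37 libraries are those of the first comparison. The ribosomal protein mRNAs were lower in LL37 by a median of -0.17 on the log2 scale, with 70 genes below 0 and 7 above. In all, 4 genes were called lower, Rpl5, Rps20 and Rpl4 among them, and 0 higher, which is 5.19% of the family against 12.4% of all tested genes that were lower and 11.8% that were higher. All 3 LL37 libraries lay below all 3 LL37 + RAPA libraries for 27 of the 77 genes, or 35.1%, against 20.7% of all tested genes. So many genes of the family were lower in LL37 than in LL37 + RAPA by a small amount, and few single genes passed the test.

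Rpl5, which carries the smallest ribosomal RNA of the large subunit to the ribosome, had 769, 815 and 740 CPM in LL37 and 1054, 977 and 979 in LL37 + RAPA. The vehicle groups had 755, 903 and 793 CPM in control and 978, 985 and 1008 in control + RAPA, so that both rapamycin groups lay above both groups without it. The log2 fold change for LL37 vs LL37 + RAPA was -0.37 ± 0.098 (SE, adjusted p = 0.0189). Without LL37 replicate 1 or LL37 + RAPA replicate 1 the call was lost, with an adjusted p of up to 0.0763. Of the stretches of the Rpl5 transcript, 91.1% are shared with other genes, so that its counts are uncertain. With copies added the log2 fold change was -0.36 (adjusted p = 0.0236).

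Rpl4, a large-subunit protein that lines the exit tunnel, had a like pattern, with 1271, 1368 and 1238 CPM in LL37 and 1701, 1616 and 1601 in LL37 + RAPA. The control libraries had 1228, 1466 and 1288 CPM and the control + RAPA libraries 1643, 1604 and 1657, again without overlap between rapamycin and no rapamycin. Its log2 fold change for LL37 vs LL37 + RAPA was -0.34 ± 0.101 (SE, adjusted p = 0.0302).

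For Rps20, a small-subunit protein, LL37 gave 558, 630 and 589 CPM and LL37 + RAPA 859, 721 and 769, and the log2 fold change was -0.40 ± 0.111 (SE, adjusted p = 0.0232). The 3 LL37 + RAPA libraries were above the 3 LL37 libraries. Rpl5, Rps20 and Rpl4 did not pass the test in LL37 vs control, where their log2 fold changes were -0.08, -0.14 and -0.04. With single libraries left out, the number of called genes was 0 without LL37 replicate 1 or LL37 + RAPA replicate 1, 1 without LL37 + RAPA replicate 3, 2 without LL37 + RAPA replicate 2 and at most 6 otherwise. It was 2 with a replicate block (Rpl5 and Rps20), 10 with libraries scaled by their total alone and 11 with DESeq2. Over all tested genes, 6.48% were called lower without LL37 replicate 1 and 6.85% without LL37 + RAPA replicate 1. The share was 8.18% without LL37 + RAPA replicate 3 and 9.14% without LL37 + RAPA replicate 2. It was 11.3% with the replicate block, 13.2% with scaling by total and 12.8% with DESeq2.

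Among the genes named for their role that missed the threshold, Rps4x, the X-linked form of a small-subunit protein, was nearest to it. It had 873, 985 and 882 CPM in LL37 and 1219, 1101 and 1126 in LL37 + RAPA, a log2 fold change of -0.33 (adjusted p = 0.0515). Rps19, mutated in Diamond-Blackfan anemia, had 767, 896 and 736 CPM in LL37 and 1023, 934 and 965 in LL37 + RAPA, a log2 fold change of -0.29 (adjusted p = 0.0777). Neither gene's groups overlapped. Rps3, which forms part of the mRNA entry site, had 1310, 1414 and 1278 CPM against 1428, 1398 and 1400, which overlapped, with a log2 fold change of -0.08 (adjusted p = 0.593).

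Both genes that led LL37 vs control were on the other side of the family in this comparison. Rpl13a was 0.17 and Rpl41 0.19 higher in LL37 than in LL37 + RAPA on the log2 scale, neither past the test. When the summed counts of the 77 genes replaced the library size, so that each gene was compared with its own family, Rpl13a (0.36, adjusted p = 0.0252) and Rpl41 (0.38, adjusted p = 0.0186) were higher in LL37 than in LL37 + RAPA. That scaling put the median of all tested genes at 0.19 for LL37 vs LL37 + RAPA. It called 20.9% of all tested genes higher there and 6.09% lower. Rpl13a, Rpl41 and Rps12 were also higher in LL37 than in control with that scaling, by 0.51, 0.41 and 0.43 on the log2 scale. Of all tested genes 15.7% were called higher in that comparison.

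**Figure D4:**
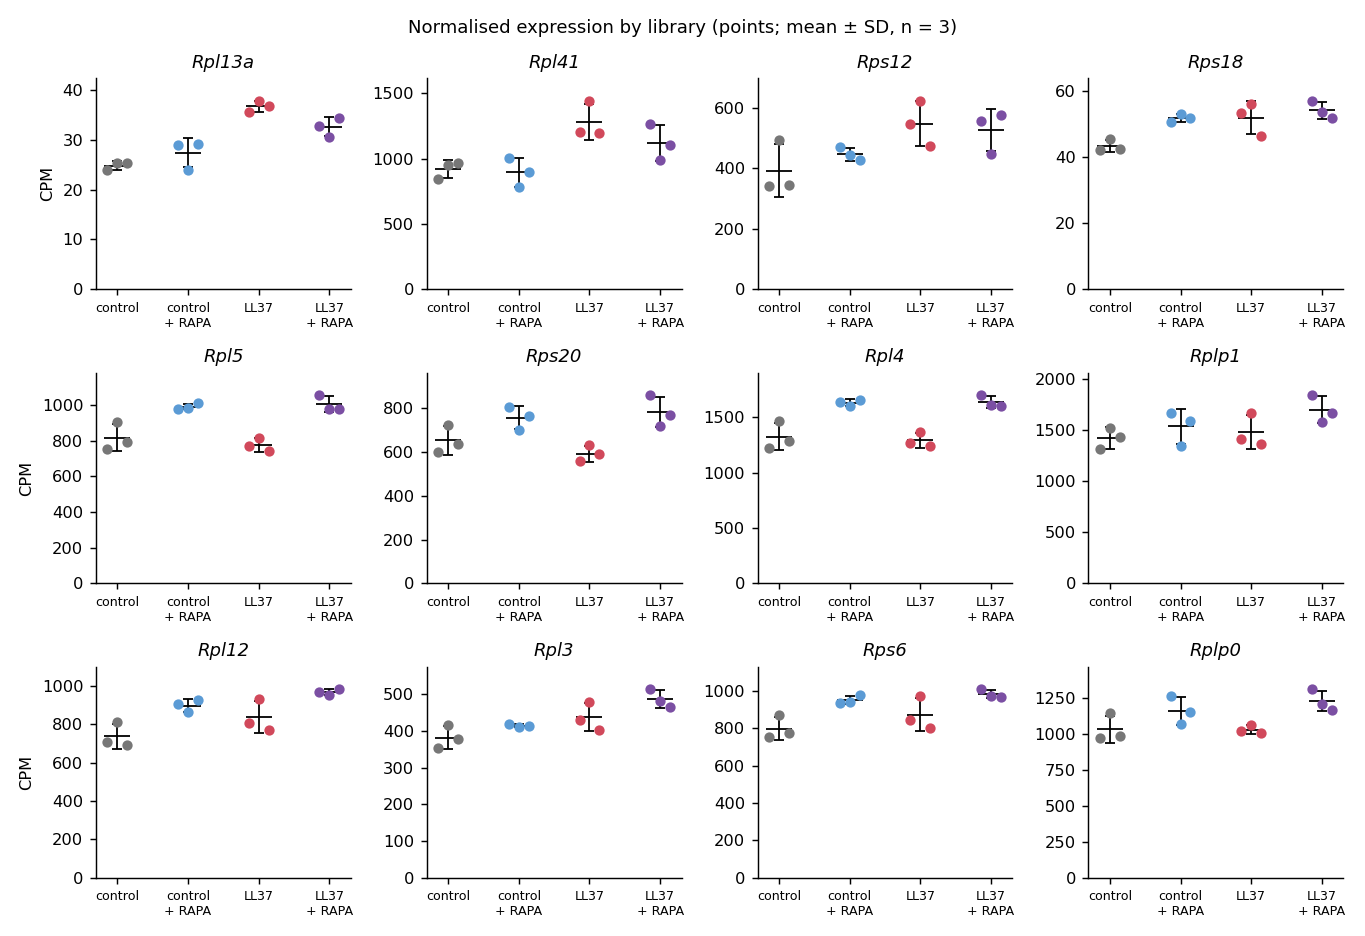
CPM (vertical axis, TMM-normalized) of 12 ribosomal protein genes in the 4 groups, with a point for each library and the mean ± SD of each group (n = 3). Rpl13a was highest in LL37 (35.7 to 37.8 CPM), whereas Rpl5 and Rpl4 were higher in both rapamycin groups than in both groups without it.

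LL37 + RAPA vs control compares mice that had both agents with mice that had neither, and it shares its libraries with the comparisons above. Ribosomal protein mRNAs were higher in LL37 + RAPA by a median of 0.25 on the log2 scale, with 76 of the 77 genes above 0. In this comparison 7 genes rose and 0 fell, 9.09% of the family against 5.03% of all tested genes that were higher and 9.01% that were lower. For 46 genes, or 59.7%, all 3 LL37 + RAPA libraries lay above all 3 control libraries, against 16.9% of all tested genes, and 34 genes (44.2%) had an unadjusted p below 0.05, against 27.4% of all tested genes. The medians were 0.23 for the large subunit and 0.27 for the small one, and 0.27 for the 13 genes with a TOP-like start and 0.25 for the other 44 with a start sequence. The log2 fold changes of the family had a standard deviation of 0.10, close to the median standard error of 0.11 of a single gene.

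Of the 7 genes, Rpl12, a large-subunit protein next to the stalk, had 707, 810 and 695 CPM in control and 969, 952 and 983 in LL37 + RAPA, a log2 fold change of 0.39 ± 0.104 (SE, adjusted p = 0.0270). Rpl3, which lies near the peptidyl transferase centre, had 352, 417 and 377 CPM in control and 513, 481 and 464 in LL37 + RAPA, a log2 fold change of 0.35 (adjusted p = 0.0351). The groups did not overlap in either gene. Rps18 (51.9 to 56.9 CPM against 42.2 to 45.3) and Rpl13a rose as well, by 0.32 (adjusted p = 0.0308) and 0.39 (adjusted p = 0.0188). Rpl23a and Rpl23, picked out after their values were seen, also passed the test, with log2 fold changes of 0.30 and 0.34.

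The count of 7 depended on single libraries far more than the median did. It was 0 without control replicate 1, LL37 + RAPA replicate 1 or LL37 + RAPA replicate 3, 1 without control replicate 3 or LL37 + RAPA replicate 2, and 17 without LL37 replicate 3, while the median stayed between 0.19 and 0.31 with 74 to 76 genes above 0. The count of the family was 46 with libraries scaled by their total alone, which called 11% of all tested genes higher and moved the median of all genes by 0.13 on the log2 scale, 23 with a correction for transcript length, 20 with DESeq2, 4 with a replicate block and 1 with a looser filter on low counts. The length correction called 5.31% of all tested genes higher, DESeq2 6.33%, the block 4.12% and the looser filter 2.96%.

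The 3 stalk proteins, whose mRNAs encode the flexible arm that recruits elongation factors, had values like those of the rest of the family. Rplp0 had 1310, 1212 and 1170 CPM in LL37 + RAPA, Rplp1 1839, 1580 and 1670 and Rplp2 746, 676 and 745. In control the values were 970, 1144 and 984 for Rplp0, 1309, 1523 and 1427 for Rplp1 and 565, 598 and 574 for Rplp2. All 3 genes had LL37 + RAPA above control in every library, with log2 fold changes of 0.25, 0.26 and 0.32, and none passed the test. Rps6 had 1009, 974 and 970 CPM in LL37 + RAPA against 752, 870 and 774 in control, a log2 fold change of 0.30 (adjusted p = 0.0744). Rpsa, which also serves as a laminin receptor, had 1810, 1696 and 1741 CPM against 1416, 1545 and 1388, a log2 fold change of 0.27 (adjusted p = 0.156).

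Genes linked to selective translation or to loss in disease had much the same values. Rpl10, mutated in some leukaemias, had 884, 883 and 894 CPM in LL37 + RAPA against 714, 788 and 708 in control, a log2 fold change of 0.27 (adjusted p = 0.0794). Rpl22, a tumour suppressor in T cells, had 414, 385 and 393 CPM against 314, 373 and 331, a log2 fold change of 0.23 (adjusted p = 0.194). Rpl38, needed for translation of a subset of Hox mRNAs in mouse embryos, had 250, 169 and 191 CPM against 143, 203 and 192, which overlapped, with a log2 fold change of 0.18 (adjusted p = 0.555). Rpl36a and Rpl39, both X-linked, had log2 fold changes of 0.31 each without passing the test. Rpl24 was the 1 gene below 0, with 6.59, 6.92 and 5.72 CPM in LL37 + RAPA, 7.66, 6.25 and 7.95 in control and a log2 fold change of -0.18 (adjusted p = 0.500).

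In control + RAPA vs control, which asks what rapamycin did without LL37, 0 of the 77 genes were called by edgeR, as were 0% of all tested genes. DESeq2 called 0 of the 77 genes and 93 of 19542 genes in all. The median log2 fold change was 0.17, 68 genes lay above 0, and 13 (16.9%) had an unadjusted p below 0.05, against 8.65% of all tested genes. All 3 control + RAPA libraries lay above all 3 control libraries for 18 genes, or 23.4%, against 8.25% of all tested genes. Rpl5 and Rpl4, given above, and Rps18 (50.5, 53.0 and 51.9 CPM against 42.2, 45.3 and 42.4) were among these. Rps6 had 939, 941 and 980 CPM in control + RAPA, all above the control libraries, and a log2 fold change of 0.26 (adjusted p = 0.534).

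The interaction of LL37 and RAPA asks whether the rapamycin difference was unlike in LL37 and in vehicle skin. It was called for 0 of the 77 genes by edgeR and by DESeq2, against 3.28% of all tested genes by edgeR and 9.90% by DESeq2. Over all genes the edgeR count of 590 was 3145 when LL37 replicate 3 was left out and 2 when LL37 + RAPA replicate 1 was. LL37 replicate 3 differed from LL37 replicates 1 and 2 in its markers. Its neutrophil share was 0.0262% against 0.173 and 0.251%, and its muscle share 0.0589% against 0.00136 and 0.00149%. Of the 77 genes, 1, Rpl13a, had an unadjusted p below 0.05 (log2 value -0.31, adjusted p = 0.207), against 4049 of all 17993 tested genes. The median was 0.01 on the log2 scale with 45 genes above 0, but the median standard error of 0.16 for a single gene leaves room for differences of the size seen in the other comparisons. Across all 4 groups, 58 of the 77 genes had their highest mean in LL37 + RAPA and 6 in LL37, and 50 had their lowest mean in control.

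Many ribosomal protein genes have processed copies elsewhere in the genome whose sequence is nearly the same, and the counts of such a gene are split between it and its copies. Genes outside the family that shared a stretch of 100 bases with the transcript of a member and did not overlap it were taken as its copies where they were annotated as pseudogenes or shared at least 50% of their own stretches with it, and 70 of the 77 genes had at least 1 copy in the table. Other genes that share stretches were not counted, such as a long noncoding RNA gene that shares 116 stretches with Rpl41 and held 5637 counts over the 12 libraries, and Gm11361, a gene annotated as protein coding that shares 189 stretches with Rps18 and held 58766 counts, against 11909 for Rps18 itself. For 10 genes more than 50% of the counts of gene and copies together fell on the copies. These were Rpl26 (98.5%), Rpl29 (97.8%), Rps2 (97.7%), Rpl21 (94.2%), Rpl30 (89.5%), Rpl35a (75.4%), Rpl17 (70.7%), Rpl24 (67.2%), Rpl3 (55.1%) and Rplp0 (53.9%), of which Rps2, Rpl30, Rpl35a and Rpl17 were picked out after their values were seen. With copies added, the median level was 1026 CPM per kb and 4 genes in place of 8 lay under 100.

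Rpl17 showed it best. The gene itself had 142, 308 and 105 CPM in control, 371, 199 and 347 in control + RAPA, 106, 281 and 134 in LL37 and 366, 233 and 234 in LL37 + RAPA. Its copies had 559, 487 and 590 CPM in control, 503, 628 and 504 in control + RAPA, 582, 479 and 577 in LL37 and 557, 632 and 642 in LL37 + RAPA. In each group the library highest for the gene was the lowest for the copies, and the coefficient of variation within groups was 44.8% for the gene and 5.13% for the sum. The sum gave a log2 fold change of -0.30 for LL37 vs LL37 + RAPA (adjusted p = 0.0344). Rps2 likewise varied by 20.9% alone and 5.18% with its copies, and its sum was 0.27 higher in LL37 than in control on the log2 scale (adjusted p = 0.0404).

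Rps27a, which is made as a fusion with ubiquitin, kept its spread. It had 148, 179 and 439 CPM in control, 178, 158 and 470 in control + RAPA, 314, 300 and 310 in LL37 and 207, 364 and 319 in LL37 + RAPA, and its coefficient of variation was 47.2% alone and 39.4% with copies. One library of each vehicle group stood far above the rest of its group, so no comparison of this gene can be read from single libraries. Of the 77 genes, 10 had a coefficient of variation above 14% alone and 3 with copies. Counting the copies in again gave 4 called genes for LL37 vs control, but with Rps2 in place of Rps18. It gave 6 in place of 4 for LL37 vs LL37 + RAPA. For LL37 + RAPA vs control it gave 6 in place of 7. Over all tested genes the shares were then 21.0% higher, 12.5% lower and 5.03% higher, respectively.

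**Figure D5:**
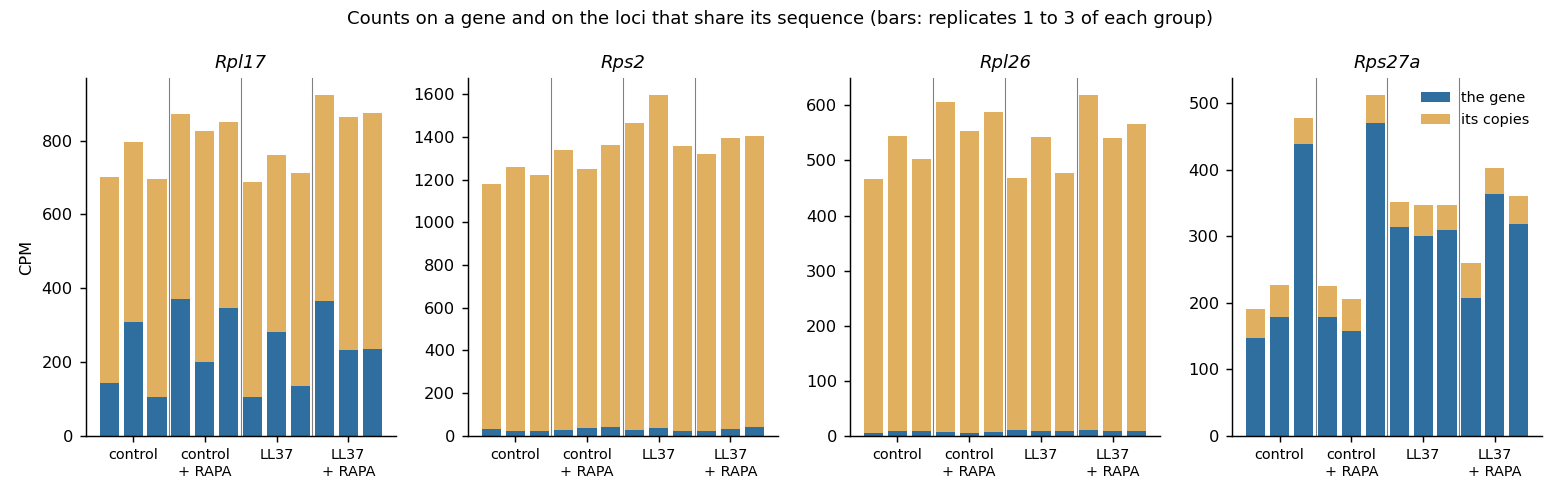
CPM of Rpl17, Rps2, Rpl26 and Rps27a in each of the 12 libraries, split into counts on the gene and counts on its copies elsewhere in the genome. The sums were even for Rpl17 (coefficient of variation within groups 5.13%, against 44.8% for the gene alone) but not for Rps27a (39.4%).

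The rest of the machinery that builds and drives ribosomes was followed on lists of genes chosen for their function, and each count is to be read against the shares of all tested genes given above. These were 21.0% higher and 21.6% lower in LL37 vs control, 11.8 and 12.4% for the rapamycin comparison within LL37 skin, and 5.03 and 9.01% in LL37 + RAPA vs control. Of 68 ribosome biogenesis genes tested, 35 (51.5%) rose and 1 fell in LL37 vs control, 33 (48.5%) were higher and 0 lower in LL37 than in LL37 + RAPA, and 0 rose and 1 fell in LL37 + RAPA vs control. Their median log2 fold changes were 0.41, 0.44 and -0.02, where the ribosomal protein genes had 0.08, -0.17 and 0.25. Rrs1, which helps to assemble the large subunit, had 33.9 ± 4.32 CPM in control, 36.4 ± 0.708 in control + RAPA, 62.3 ± 17.7 in LL37 and 40.2 ± 3.02 in LL37 + RAPA (SD, n = 3 each), with a log2 fold change of 0.88 (adjusted p = 0.00245) for LL37 vs control. Imp4 and Utp20, both of the complex that processes the small-subunit RNA, rose by 0.58 and 0.62 and were higher in LL37 than in LL37 + RAPA by 0.42 and 0.59. Of 20 RNA polymerase I genes, 4 (20%) rose with LL37 relative to control, a share near that of all tested genes, and 4 were higher in LL37-injected skin without rapamycin than with it, with 0 lower in either. Twistnb passed in both, by 0.51 and 0.38, and Rrn3, the initiation factor of that polymerase, was 0.48 higher in LL37 than in LL37 + RAPA.

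Among 38 translation initiation and elongation factors, 12 (31.6%) rose and 6 (15.8%) fell in LL37 vs control, and 17 (44.7%) were higher and 1 lower in LL37 than in LL37 + RAPA. Eif4a1, the helicase of the cap-binding complex, rose by 0.70 (adjusted p = 0.000720) and Eif1a by 1.05 (adjusted p = 0.000737). Eef1a2, the elongation factor of muscle and neurons, fell by 7.49 on the log2 scale, from 811 to 4.36 CPM, beside the fall of the muscle markers given above. Of 16 other mRNAs known to carry a TOP motif, 4 (25%) rose and 3 (18.8%) fell in LL37 vs control, shares near those of all tested genes. These included Pabpc1, the poly(A)-binding protein, at 0.77 (adjusted p = 0.000302), Npm1, a nucleolar chaperone, at 0.70 (adjusted p = 0.000580) and Eif3f at -0.36 (adjusted p = 0.00486). In LL37 vs LL37 + RAPA 1 gene of this list was higher and 5 (31.3%) were lower.

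Of 16 genes between mTORC1 and translation, 2 (12.5%) rose and 5 (31.3%) fell in LL37 vs control. Pdcd4, an inhibitor of the Eif4a helicase, rose by 0.94 (adjusted p = 0.000857), while Akt1s1, the mTORC1 inhibitor also called PRAS40, fell by 0.49 and Tsc2, an upstream brake on mTORC1, fell by 0.53 on the log2 scale. Akt1s1 and Tsc2 were also lower in LL37 + RAPA than in control, by 0.41 and 0.35, and neither differed past the test between LL37 and LL37 + RAPA.

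The mitochondrial ribosome is built from a separate set of proteins. Of 77 tested genes taken by symbol alone (Mrpl or Mrps and a number), 1 rose and 12 (15.6%) fell in LL37 vs control. In LL37 vs LL37 + RAPA 7 (9.09%) were higher in LL37 and 1 lower. In LL37 + RAPA vs control 1 rose and 17 (22.1%) fell. The medians were -0.09, 0.14 and -0.21. Mrpl42 fell by 0.61 on the log2 scale in LL37 vs control. Mitochondria-encoded genes took 2.61% of the counts in control, 2.43% in control + RAPA, 1.32% in LL37 and 1.71% in LL37 + RAPA, and the part of this or of the muscle share in the values of the mitochondrial ribosome was not tested.

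Other components of the cytosolic ribosome, such as Fau, which is made as a fusion with a ubiquitin-like protein, and the scaffold protein Rack1, stayed outside the choice by symbol. Neither gene passed the test in any comparison, and their log2 fold changes for LL37 + RAPA vs control were 0.24 and 0.30, within the range of the family. Of 8 tested paralogs of ribosomal proteins, 2 (25%) rose and 1 fell in LL37 vs control. Rpl3l, the form of Rpl3 in striated muscle, had 169, 149 and 157 CPM in control, 195, 113 and 155 in control + RAPA, 0.163, 0.368 and 1.13 in LL37 and 14.4, 6.14 and 9.56 in LL37 + RAPA, and so was low in the groups where the muscle markers were low. Its fitted log2 fold change for LL37 vs control was -8.07 (adjusted p = 8.75e-07), on 3, 6 and 24 counts in the LL37 libraries. Rpl39l, a paralog of Rpl39 best known from testis, had 4.48, 3.02 and 4.37 CPM in control, 8.71, 8.95 and 5.37 in LL37 and 8.30, 9.50 and 9.15 in LL37 + RAPA, with control below both. It rose by 0.95 (adjusted p = 0.00470) in LL37 vs control and by 1.18 (adjusted p = 0.00372) in LL37 + RAPA vs control. Rpl7l1, a nucleolar relative of Rpl7, rose by 0.43 in LL37 vs control and was 0.38 higher in LL37 than in LL37 + RAPA. In control + RAPA vs control 0 genes of any of these lists were called by edgeR.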

How the data were processed

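Total RNA of mouse skin was sequenced in 12 libraries, 3 for each of 4 groups, which were taken from the sample labels. The authors deposited raw read counts per gene without normalization and without pooling replicates. The submitters' processing notes name HISAT2 2.0.5, StringTie 1.3.3b, featureCounts 1.5.0-p3, DESeq2 1.16.1 and the mm10 build, while the methods name HTSeq for the counting. Strand and the treatment of reads that match several places are not given in the sources used here, so genes with near-identical copies and the 25 members that another gene overlaps are uncertain. No library repeated another: the chi-square per degree of freedom between the counts of libraries in the same group was at least 13.8. All columns were mapped to a library (0 were not).

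Counts were analysed in R 4.3.3 by the quasi-likelihood test of edgeR 4.0.16 in 1 fit of all 12 libraries, after filterByExpr on the groups and TMM scaling, and p-values were adjusted by Benjamini-Hochberg over 17993 genes. Genes were called at an adjusted p below 0.05. The script was tested on simulated data with known fold changes. P-values set a group difference against the spread of libraries within groups, estimated over all 4 groups together and moderated across genes. Depth was 15734559 to 23271784 counts. Transcript lengths came from GENCODE M21 (the best-supported coding transcript). The members, lists and tests were chosen with earlier results of these data known. Named genes are a set fixed by role, in each comparison the 3 genes of the family with the lowest p on either side of 0, and the 3 highest and 3 lowest per kilobase, and up to 3 of each other list. Values of 3 genes are not reported here. The alternatives were other scalings, filters, a length offset, a replicate block, the compared groups only, each library left out, DESeq2 1.42.0 and, chosen after seeing the data, members summed with their copies.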

Additional observations from a re-analysis of the deposited data

How the results depend on the processing

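Under 12 settings other than the scaling to the family itself, the median of the 77 genes kept its sign, at 0.06 to 0.17 for LL37 vs control, -0.21 to -0.15 for LL37 vs LL37 + RAPA, 0.24 to 0.38 for LL37 + RAPA vs control and 0.11 to 0.17 for control + RAPA vs control, but for the interaction it ran from -0.01 to 0.11. With the family's summed counts as library size it was 0.019 for LL37 vs LL37 + RAPA, 0.0060 for LL37 + RAPA vs control and -5.24e-05 for control + RAPA vs control, by construction. With library size alone it was 0.38 for LL37 + RAPA vs control. That scaling moved the median of all genes by 0.13 and the share of higher genes among all called ones from 35.8 to 61.3% in that comparison, and from 65.6 to 79.0% for the interaction.

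The number of called genes depended more on the setting. For LL37 vs control it was 4, and 8 with library size only or a length offset, 2 with the compared groups only, 0 at an absolute log2 fold change above 1, and 1 to 7 with a library left out. For LL37 vs LL37 + RAPA it was 4, and 10 with library size only, 2 with the family as library size (both higher in LL37), 11 with DESeq2, 0 above the fold limit and 0 to 6 with a library left out. For LL37 + RAPA vs control it was 7, and 46 with library size only, 13 with TMM without the ribosomal protein genes, 1 with a filter of 1 count in total, 12 with a filter of 10 counts in every library, 23 with a length offset, 0 with the family as library size, 20 with DESeq2, 0 above the fold limit and 0 to 17 with a library left out. The causes were not tested. Over all tested genes, TMM without the ribosomal protein genes called 6.02% higher in LL37 + RAPA vs control and the filter of 10 counts 6.70%. The length offset called 22.4% higher in LL37 vs control. With a library left out the medians, in the order above, were 0.01 to 0.14, -0.23 to -0.13, 0.19 to 0.31, 0.11 to 0.22 and -0.03 to 0.09. The interaction has no value in a fit of only the groups compared.

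The replicate block gave 4, 2 and 4 called genes in the same 3 comparisons. Over all tested genes it called 20.4% higher, 11.3% lower and 4.12% higher, respectively. Libraries with the same number had correlations of -0.19 to 0.26 between their deviations from the group means, not all above 0.1, so the numbers were not taken to pair the samples.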
